A study of Mus musculus with 2 samples.

Results

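Cluster 8 (C8) is a group of *Cd83*-rich conventional dendritic cells (cDCs) in mouse spleen that the paper annotates as mature cDC2a. Markers of cDC2a and of maturity both differed within C8, as given below. Its members were the cells that carry number 8 in the clustering deposited by the authors at resolution 0.5. They came to 1000 of 24343 cells, 531 from the wild-type (WT) library and 469 from the *Batf3*-/- library. C8 was set beside cluster 0 (C0), cDC2a cells with 3176 WT and 2961 *Batf3*-/- cells, and cluster 1 (C1), mature cDC2 cells with 721 and 1845.

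The study measured transcripts and antibody-derived tags together (CITE-seq) in sorted live MHCII+CD11c+ cells. The cells came from spleens of female C57BL/6 mice, WT or *Batf3*-/-, both 8 weeks old and with no treatment named. *Batf3* encodes a transcription factor that the cDC1 lineage needs, and the *Batf3*-/- mice lack it in every cell. Spleens of both genotypes were digested with enzymes and mechanical force, freed of red cells and depleted of T and B cells before sorting. Each genotype was 1 library from pooled mice with no label for the single mouse, so no difference between genotypes has a replicate check and no test was made. The clusters were drawn from the same transcripts, so differences between clusters are descriptions of how C8 differs and are also given without a test.

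cDC2 cells take up antigen and present it to CD4 T cells. On maturation they lower antigen uptake, raise MHC class II and costimulatory molecules on the surface, and follow CCR7 ligands to T cell areas. CD83 stabilises MHC class II and CD86 at the surface, CCR7 is the receptor that directs this migration, and IRF4 is a transcription factor of the cDC2 lineage. Immediate early genes (*Fos*, *Egr* and *Nr4a* family members and others) are transcribed within minutes of a stimulus from factors already present in the cell, with no need for new protein.

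C8 held 4144695 unique molecular identifiers (UMIs, counted transcripts) in WT and 4260238 in *Batf3*-/-, with medians of 7015 and 8115 per cell. These were close to the medians of C0 (6648 and 7187) and C1 (6176 and 6753). No barcode was shared by the 2 libraries within C8, while 56 were shared among all cells, 5 of them with their other copy outside C8. Levels below are CPM, that is, the summed UMIs of a gene in a cluster and library as parts of 1000000 of all its UMIs. Intervals in parentheses are 95% intervals for counting error only, exact Poisson for CPM and exact binomial for shares. *Batf3* itself was at 155 CPM in WT C8 and at 3.29 CPM in *Batf3*-/- C8, in accord with the library labels.

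The 3 genes taken as markers of C8, *Cd83*, *Irf4* and *Ccr7*, were high in C8 as a whole in both libraries. *Cd83* (chr13:43784775-43803132, plus strand, GRCm38) was at 1444 CPM (1408 to 1481) in WT and 1393 CPM (1358 to 1429) in *Batf3*-/-, against 106 and 97.2 CPM in C0 and 761 and 687 CPM in C1. With both libraries pooled, as for every rank given here, C8 had the highest *Cd83* level of the 15 clusters with at least 200 cells. Its log2 ratio to C0 was 3.77 and 3.84, and that to C1 was 0.92 and 1.02, just below and just above a doubling. *Irf4* (chr13:30749226-30766976, plus strand) also ranked first, at 143 CPM (132 to 155) and 113 CPM (103 to 123), and was at 24.5 to 30.3 CPM in both libraries of C0 and C1.

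*Ccr7* (chr11:99144196-99155077, minus strand) was at 693 CPM (668 to 719) in WT C8 and 1122 CPM (1091 to 1155) in *Batf3*-/- C8. It was nearly absent from C0, at no more than 17.4 CPM, and stood at 831 and 930 CPM in C1. The C8 values lie on both sides of those of C1, and the ratio of C8 to C1 had opposite signs in the libraries, with log2 values of -0.26 and 0.27. With the libraries pooled, cluster 12 (mature cDC1 cells) had more at 1954 CPM and C8 ranked second, while in WT alone C1 was above C8. A sub-cluster of 172 cells, described below, held 76.7% of the *Ccr7* UMIs of C8. The other C8 cells were at 184 CPM in WT and 325 CPM in *Batf3*-/-.

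To compare how many cells carried a transcript, every cell was thinned to 1000 UMIs. *Cd83* was then seen in 68.4% of WT and 68.7% of *Batf3*-/- C8 cells, in 8.47% and 7.68% of C0 cells and in 46.0% and 42.8% of C1 cells. *Ccr7* was seen in 21.1% (17.7 to 24.8) and 36.2% (31.9 to 40.8) of C8 cells, fewer than the 51.4% and 51.8% of C1 cells, although the summed levels of the clusters were alike. Free RNA gives stray UMIs, and its level can be read from cells that should lack these genes. The NK and T cells of cluster 13 (median 4830 and 6292.5 UMIs before thinning) had *Cd83* in 3.73% and 5.48% of cells, and the plasmacytoid DCs of cluster 14 (8466 and 8982 UMIs) in 3.90% and 1.98%. For *Ccr7* these shares were 9.54% and 8.22% in cluster 13, where some T cells use the gene, and 4.55% and 2.97% in cluster 14, below both C8 values.

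**Figure D1:**
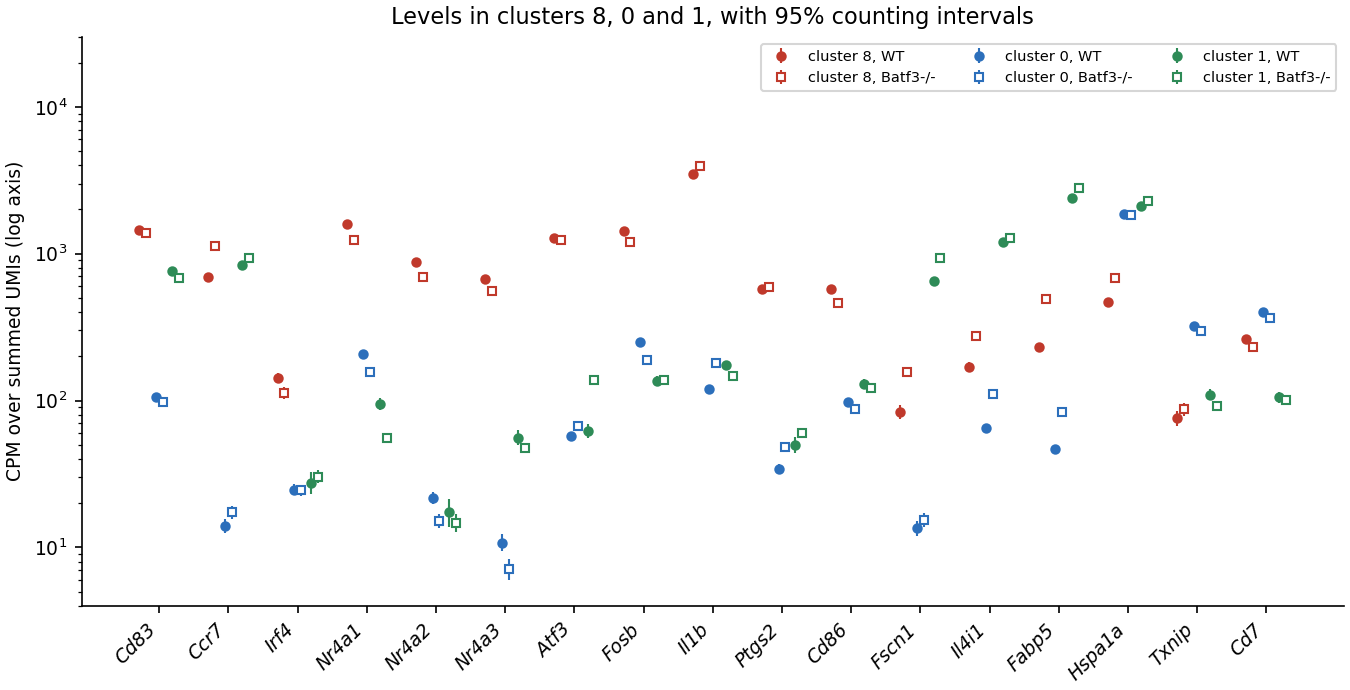
Levels of 17 genes in C8 (red), C0 (blue) and C1 (green), as CPM over summed UMIs on a log axis. Filled circles are WT and open squares *Batf3*-/-, and bars are 95% counting intervals. The *Nr4a* genes, *Atf3*, *Il1b* and *Ptgs2* in C8 lie far above both other clusters, while *Fscn1*, *Il4i1* and *Fabp5* in C8 lie between C0 and C1.

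The cDC2a label was checked against its markers, which differed within C8. *Sirpa*, the cDC2 surface receptor, was at 226 and 252 CPM in C8 and 207 and 247 CPM in C0. *Cd7*, which marks cDC2a cells in these data, was at 263 and 230 CPM, between C0 (400 and 367) and C1 (105 and 101). Of 16 cDC2a identity genes with enough counts, 1 (*Cass4*) was higher in C8 than in C0 and none lower, where 5.14% of all genes compared were higher and 0.609% lower, so that this count does not set the list apart, and the list median was -0.31 on the log2 scale. Against C1, 6 of 16 were higher in C8 (8.17% of all genes) and none lower (5.30%), with a median of 0.73. The cDC2b and monocyte-linked list had a median of 0.66 against C0, with 1 of 7 compared genes (*Lyz2*) higher and none lower. With a minimum mean of 5 CPM, 5 of 12 were higher, where 415 of all 8622 genes were. The list summed to 2637 and 3170 CPM in C8, 2355 and 2604 CPM in C0 and 4345 and 4717 CPM in C1. In the sub-cluster of 172 cells described below *Cd7* was at 115 and 111 CPM, close to C1, and the summed identity list was at 2266 and 2174 CPM, against 3716 and 3672 CPM in C0 and 1767 and 1513 CPM in C1. In the sub-cluster of 187 cells the identity list was at 2552 and 2373 CPM. Across 5559 genes, the log levels of C8 correlated most with those of C0 (Pearson r = 0.924, both libraries pooled), then cluster 11 (0.920) and cluster 2 (0.914), and with C1 at 0.893. The paper annotates clusters 11 and 2 as cDC2b. Its mitotic cDC2a clusters 5, 10 and 7 were at 0.899, 0.859 and 0.831, so the order does not separate cDC2a from cDC2b. These coefficients are across genes that share libraries, and they carry no test.

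Transcripts of other cell types were present in C8 at low levels. The deposited reference labels called 524 of 531 WT and 465 of 469 *Batf3*-/- cells DCs and the other 7 and 4 monocytes. The finer deposited labels gave monocyte names to groups of 8 and 4 C8 cells and macrophage names to groups of 5, 4, 2 and 1. The 4 T cell markers measured of 6 listed summed to at most 2.41 CPM, against at most 2.47 CPM in C0. The NK cell list summed to 39.6 and 46.5 CPM, above the 22.5 and 30.7 CPM of C0, with *Klrb1a* and *Ncr1* at 0. The B cell list summed to 42.0 and 54.7 CPM, below the 49.9 and 67.8 CPM of C0, with *Cd79a* at 0. The plasmacytoid DC list summed to 221 and 215 CPM (C0 190 and 182) and the red pulp macrophage list to 98.4 and 135 CPM (C0 110 and 136). The neutrophil list summed to 4.58 and 4.69 CPM, with *Ly6g* and *Retnlg* at 0, and the erythroid list to 10.1 and 16.0 CPM, with *Alas2* at 0. The part of these transcripts in the differences between clusters was not tested. Summed cDC1 markers were at 106 and 125 CPM, against 80.8 and 49.3 CPM in C0 and 4276 CPM in cluster 4. All 7 monocyte markers were measured, and they summed to 233 and 333 CPM, above the 37.0 and 51.0 CPM of C0 and the 140 and 168 CPM of C1. Cells called as doublets were 5.65% and 5.33% of C8, near the 4.72% and 5.15% of C1 and above the 0.126% and 0.236% of C0. The part of the doublet share in the differences from C0 was examined only by leaving these cells out. That kept the total numbers of called genes given below within a factor of 1.5. The counts within gene lists were not recomputed without these cells.

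C8 was compared with C0 gene by gene over the 5255 genes whose mean reached 20 CPM. A gene was called when it differed by at least 2-fold in the same direction in both libraries. In C8, 270 genes were higher (5.14% of those compared) and 32 lower (0.609%), and the median log2 ratio of all genes was -0.10. Against C1, 422 of 5165 genes were higher (8.17%) and 274 lower (5.30%), with a median of 0.10. Both comparisons share the C8 cells. The genes higher than in both clusters numbered 160, which was 59.3% of the first set and 37.9% of the second.

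Many immediate early genes were higher in C8 than in both other clusters. Of 30 listed genes 29 had enough counts, 22 of them were higher in C8 than in C0 (5.14% of all genes) and none lower (0.609%), with a list median of 2.60 on the log2 scale. Against C1, 19 of 29 were higher (8.17%) and 1, *Gadd45b*, was lower (5.30%), with a median of 2.19. Their summed level was highest in C8 among the 15 clusters. The part of digestion and sorting in these levels was not tested.

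The 3 *Nr4a* genes encode orphan nuclear receptors that are transcribed directly after receptor signalling. *Nr4a1* was at 1586 CPM (1548 to 1624) in WT C8 and 1235 CPM (1202 to 1268) in *Batf3*-/- C8, against 207 and 155 CPM in C0 and 95.1 and 55.5 CPM in C1. *Nr4a2* was at 883 CPM (855 to 912) and 698 CPM (673 to 723), against 14.6 to 21.7 CPM in the 4 other groups. *Nr4a3* was at 676 CPM (651 to 702) and 561 CPM (539 to 584), against 10.8 and 7.08 CPM in C0 and 55.9 and 47.3 CPM in C1. All 3 ranked first among the 15 clusters, and pooled *Nr4a2* in C8 was 12.2-fold above the next cluster, cluster 13. After thinning, *Nr4a3* was seen in 49.7% and 42.9% of C8 cells, in 1.26% and 0.542% of C0 cells and in 2.49% and 1.37% of the NK and T cells of cluster 13.

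The subunits of AP-1, a dimeric transcription factor, did not all differ. *Fos* was at 2603 CPM (2554 to 2652) and 2223 CPM (2179 to 2268) in C8, against 456 and 434 CPM in C0 and 267 and 274 CPM in C1. *Fosb* was at 1432 and 1192 CPM, with log2 ratios to C0 of 2.51 and 2.65. *Junb* was at 2748 and 2337 CPM, with log2 ratios to C0 of 2.55 and 2.65. *Jun*, a frequent partner of the Fos proteins, was at 1985 and 1871 CPM in C8 and at 1636 and 1627 CPM in C0, a log2 ratio of 0.28 and 0.20, and ranked 4 of 15. *Egr1*, an immediate early zinc finger factor, differed little from C0 (436 and 384 against 324 and 294 CPM), whereas its relative *Egr2* was at 158 and 145 CPM against 12.1 and 10.4 CPM. *Atf3*, a stress-induced partner of these factors that restrains cytokine genes, was at 1285 and 1236 CPM against 57.6 and 67.6 CPM in C0 and 62.2 and 139 CPM in C1.

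Other members of the list had other roles. *Dusp1*, a phosphatase that switches off MAP kinases, was at 1085 and 932 CPM in C8 and at 165 and 123 CPM in C0. *Btg2*, an antiproliferative gene, was at 2650 and 2415 CPM in C8 and at 903 and 891 CPM in C0. *Maff*, a small Maf protein, was at 86.1 and 89.7 CPM in C8 and at 5.45 and 7.68 CPM in C0. The zinc finger factors *Klf2* (1895 and 1528 CPM) and *Klf4* (978 and 834 CPM) were 2.73 to 2.84 higher than in C0 on the log2 scale.

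The genes that shared this pattern were looked up in RefSeq promoters (GRCm38.p6, 250 bases before to 50 after each start). The search covered the cAMP response element TGACGTCA, its short form TGACGT and other elements, on both strands. The stretches below carry the element for 4 of the immediate early genes that were high in C8. They are shown 5′ to 3′ on the gene's strand, with TGACGT or its reverse complement in capitals, and end where GENCODE M21 places the first exon base or 1 base before the RefSeq start. Nr4a3 is chr4:48045055-48045152 on the plus strand, Btg2 chr1:134079156-134079405 on the minus strand, Dusp1 chr17:26508520-26508722 on the minus strand and Maff chr15:79347270-79347519 on the plus strand, the latter at the one of its starts with a match.
Nr4a3: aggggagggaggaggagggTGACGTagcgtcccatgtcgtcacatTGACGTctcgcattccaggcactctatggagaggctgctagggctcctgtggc
Btg2: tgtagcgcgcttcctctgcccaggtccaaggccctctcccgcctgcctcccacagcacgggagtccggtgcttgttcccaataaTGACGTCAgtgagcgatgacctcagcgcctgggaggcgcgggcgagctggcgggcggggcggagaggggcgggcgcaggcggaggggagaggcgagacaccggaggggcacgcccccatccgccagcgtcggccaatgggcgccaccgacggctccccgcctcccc
Dusp1: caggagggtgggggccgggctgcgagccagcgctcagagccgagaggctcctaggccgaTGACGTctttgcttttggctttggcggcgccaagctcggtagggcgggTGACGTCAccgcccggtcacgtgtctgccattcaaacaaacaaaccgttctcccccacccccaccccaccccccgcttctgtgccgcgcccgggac
Maff: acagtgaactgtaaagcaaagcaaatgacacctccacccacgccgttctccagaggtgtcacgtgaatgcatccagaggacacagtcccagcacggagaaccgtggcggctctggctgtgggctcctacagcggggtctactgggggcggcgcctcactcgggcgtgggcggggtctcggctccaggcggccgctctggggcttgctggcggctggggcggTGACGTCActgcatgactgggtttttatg

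TGACGTCA was found in 1.79% of all 32851 promoters and in 4.04% of the 4386 matched genes among those compared here. Of the 160 genes higher in C8 than in both other clusters 128 had a promoter in the table, and 10 of them (7.81%) held it. The short form TGACGT, which includes every TGACGTCA, was in 7.51% of all promoters, in 15.5% of the compared genes and in 34 of the 128 (26.6%). Of the 30 immediate early genes 26 were matched and 9 held the short form. The AP-1 element TGANTCA was in 7.81% of all promoters, in 6.11% of the compared genes and in 9 of the 128 (7.03%). The Nr4a element AAAGGTCA was in 1.51%, in 1.21% and in 1 of the 128. The serum response element core (CArG box) was in 1.63%, in 1.73% and in 4 of the 128 (3.13%), and in 3 of the 26 immediate early genes (11.5%). The NF-kB element was in 8.46% of all promoters, in 13.3% of the compared genes and in 30 of the 128 (23.4%). A gene was counted when any of its promoters matched, so shares of promoters and of genes differ in unit. Counted by gene, 2.03% of all 27025 genes held TGACGTCA, 8.37% TGACGT and 8.97% the AP-1 element. The Nr4a element was in 1.70% of them, the CArG box in 1.81% and the NF-kB element in 9.55%. These shares are descriptions of letters in a window and were not tested.

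Cytokine and chemokine genes divided. *Il1b*, the inflammatory cytokine interleukin 1 beta, was at 3479 CPM (3423 to 3537) in WT C8 and 3937 CPM (3878 to 3997) in *Batf3*-/- C8, against 120 and 180 CPM in C0 and 173 and 147 CPM in C1. Its pooled C8 level was 8.30-fold above the next cluster, cluster 11, and after thinning it was seen in 68.4% and 73.3% of C8 cells in 9.01% and 13.6% of C0 cells and in 1.95% and 2.97% of plasmacytoid DCs. *Il1r2*, the decoy receptor that binds interleukin 1 without signalling, was at 158 CPM (146 to 171) and 106 CPM (96.8 to 117), against at most 9.35 CPM in C0 and C1. *Ccl4*, an inflammatory chemokine, was at 1087 and 1068 CPM, against 109 to 189 CPM in C0 and C1. *Ccl3*, its close relative, was at 325 and 338 CPM, against 76.5 to 99.2 CPM. *Tnf*, in contrast, was at 42.0 and 33.6 CPM in C8 and at 115 CPM in both libraries of C1. *Ccl22*, which attracts regulatory T cells, was at 2.65 and 9.39 CPM in C8 and at 81.1 and 148 CPM in C1. Of 11 listed cytokine and chemokine genes with enough counts 6 were higher than in C0 (5.14% of all genes) and none lower (0.609%), with a list median of 1.93. Without the sub-cluster of 172 cells 4 of 9 were higher and *Tnf* was lower, with a median of -0.19. In that setting 230 of all 5206 genes were higher and 27 lower. Of 14 genes compared with C1, 4 were higher (8.17% of all genes) and 6 lower (5.30%).

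Some genes outside the lists were also higher in C8 than in both other clusters. *Ptgs2*, the inducible cyclooxygenase that makes prostaglandins, was at 570 and 593 CPM against at most 60.5 CPM in C0 and C1. *Pde4b*, a cAMP-degrading phosphodiesterase, was at 346 and 322 CPM against at most 85.9 CPM. *Per1*, a clock gene with rapid induction, was at 126 and 98.1 CPM against at most 13.5 CPM. *Ptgs2*, *Pde4b* and *Per1* were picked after their values were seen. Other genes with large ratios had varied roles. *Grasp*, a scaffold protein gene, was at 420 and 443 CPM in C8 and at most at 41.5 CPM in C0 and C1. *Vps37b*, which encodes an endosomal sorting subunit, was at 267 and 228 CPM against at most 6.12 CPM. *Crem*, a modulator of cAMP-responsive genes, was at 124 and 90.4 CPM against at most 6.78 CPM. C8 ranked first for these 3 genes. *Plaur*, the urokinase receptor, was at 88.8 and 118 CPM against at most 2.38 CPM, but C8 was second for it, as plasmacytoid DCs had 108 CPM pooled over libraries against 103 CPM in C8.

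The costimulatory ligands differed by molecule. *Cd86* was at 575 CPM (552 to 599) and 458 CPM (438 to 479) in C8, against 97.3 and 87.8 CPM in C0 and 129 and 122 CPM in C1. *Cd80*, the other ligand of CD28, was at 105 and 102 CPM, against 33.7 to 38.6 CPM. C8 ranked first for both. *Cd40*, which receives help from T cells, was at 51.6 and 60.1 CPM in C8, near C0 (61.5 and 68.5) and below C1 (166 and 196). *Icosl*, *Icam1*, *Cd200* and *Fas* were lower than in C1 as well, and of 12 costimulation and checkpoint genes compared with C1, 3 were higher (8.17% of all genes) and 5 lower (5.30%).

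On the wider maturation and migration list C8 as a whole lay between the other clusters. Against C0, 15 of 23 genes were higher (5.14% of all genes) and none lower (0.609%), with a median of 1.81 on the log2 scale. Against C1, 21 of 29 were lower (5.30% of all genes) and 2 (*Cd80* and *Cd86*) higher (8.17%), with a median of -2.19. Without the sub-cluster of 172 cells described below 6 of 18 genes were higher than in C0, where 230 of all 5206 genes were higher. *Fscn1*, which bundles actin in the dendrites of mature cells, was at 84.0 CPM (75.4 to 93.3) and 157 CPM (145 to 169) in C8, 13.5 and 15.3 CPM in C0 and 653 and 927 CPM in C1. *Il4i1*, an amino acid oxidase that restrains T cells, was at 170 and 276 CPM in C8, 65.1 and 110 CPM in C0 and 1193 and 1276 CPM in C1. *Fabp5*, a fatty acid binding protein, was at 231 and 488 CPM in C8, 46.8 and 82.9 CPM in C0 and 2411 and 2816 CPM in C1. Without those 172 cells C8 had *Fscn1* at 16.6 and 21.3 CPM, *Il4i1* at 75.3 and 103 CPM and *Fabp5* at 97.9 and 123 CPM. In all, 30 genes were higher than in C0 and lower than in C1 by the same rule, *Anxa3*, *Apol7c*, *Cacnb3*, *Cxcl16*, *Marcksl1*, *Slco5a1*, *Socs2*, *Tcf7* and *Tmem123* among them. Some of these were low outside the same 172 cells, where *Anxa3* was at 17.9 and 44.9 CPM, *Apol7c* at 23.2 and 11.1 CPM and *Socs2* at 1.66 and 2.33 CPM, against 596 and 867, 973 and 827, and 258 and 283 CPM within them.

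**Figure D2:**
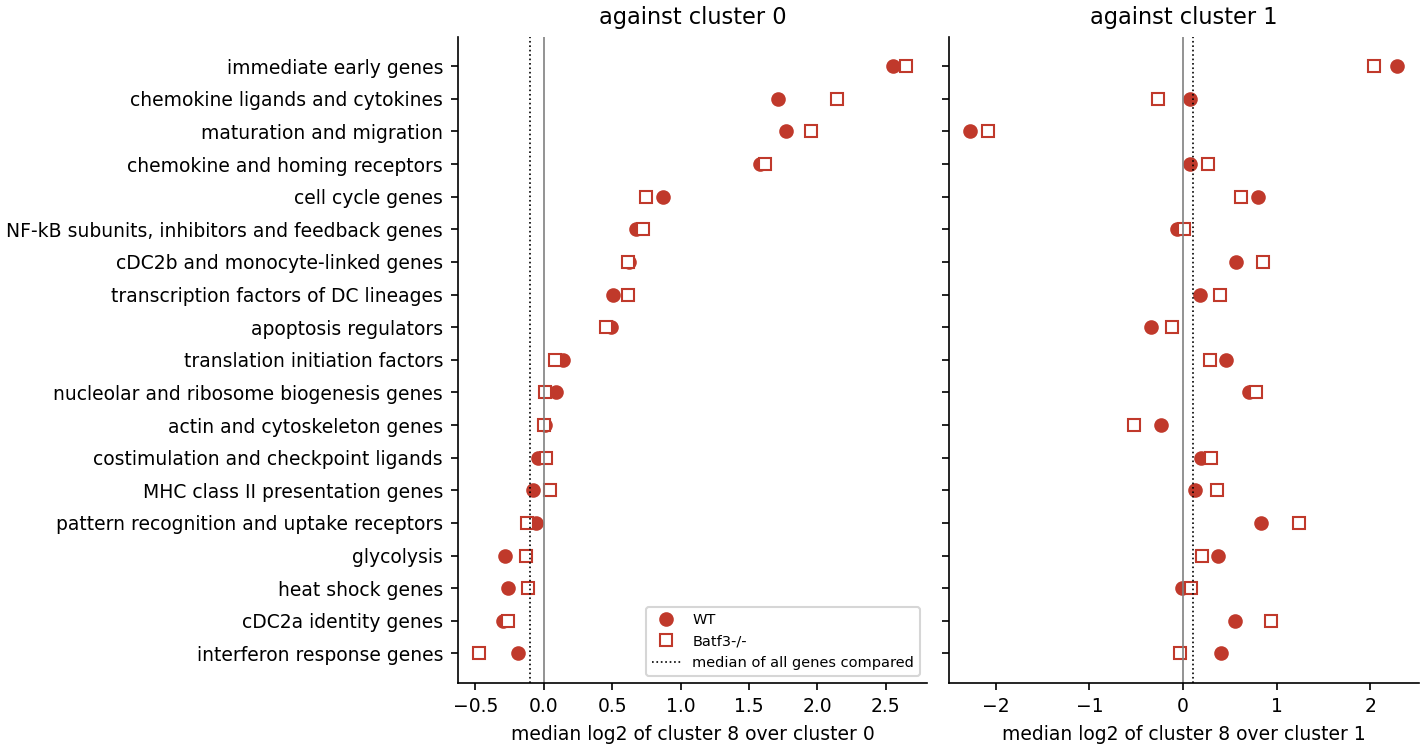
Median log2 ratio of C8 over C0 (left) and over C1 (right) for 19 gene lists, WT as filled circles and *Batf3*-/- as open squares, with the median of all compared genes as a dotted line. Immediate early genes are far to the right in both panels, and maturation and migration genes are to the right of the line against C0 and to the left against C1.

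The NF-kB genes were mixed. *Rel*, a subunit of the canonical branch, was at 1133 CPM (1100 to 1165) and 1135 CPM (1104 to 1168) in C8, 228 and 238 CPM in C0 and 373 and 346 CPM in C1. *Relb*, the subunit of the alternative branch, was at 349 and 466 CPM in C8, close to C0 (257 and 320) and below C1 (1002 and 1015), except in the sub-cluster of 172 cells, which had 967 and 1019 CPM. *Birc2*, a ubiquitin ligase that holds the alternative branch in check, was at 115 and 146 CPM in C8 and 501 and 577 CPM in C1. *Tnfaip3* (A20), an inhibitor of the pathway, was at 175 and 138 CPM, above C0 (24.8 and 25.6) and within a factor of 2 of C1 (112 and 103). Of 23 genes, 5 were higher than in C0 (5.14% of all genes) and none lower (0.609%). Against C1, 5 were higher (8.17%) and 3 lower (5.30%). Without the sub-cluster of 172 cells 4 of 23 were higher than in C1 and 5 lower, where 485 of all 5175 genes were higher and 348 lower.

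Among transcription factors of DC lineages 8 of 25 were higher than in C0 (5.14% of all genes) and none lower (0.609%). Without the sub-cluster of 172 cells 5 of 24 were higher, *Irf8*, *Bhlhe40* and *Tcf7* no longer among them, and *Id2* was lower. Of all 5206 genes in that setting 230 were higher and 27 lower. *Kdm6b*, a demethylase that removes the repressive mark on histone H3 lysine 27, was at 468 and 461 CPM in C8, 46.2 and 42.6 CPM in C0 and 71.2 and 59.1 CPM in C1. *Nfil3*, a basic leucine zipper factor, was at 55.0 and 45.1 CPM, against 1.74 to 6.24 CPM. *Runx3*, a cDC2 factor, was at 445 and 380 CPM in C8, highest of the 15 clusters, though within 2-fold of C0 (254 and 252). Against C1, 6 of the 25 were higher (8.17% of all genes) and 5 lower (5.30%), *Relb*, *Irf8* and *Tcf7* among the latter.

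The survival kinases *Pim1* and *Pim3* were high. *Pim1* was at 1463 and 1385 CPM, against 202 to 322 CPM in C0 and C1. *Pim3* was at 115 and 101 CPM, against 10.5 to 14.1 CPM. *Pmaip1* (Noxa), which promotes cell death, was at 788 and 754 CPM against 240 to 334 CPM. Of 16 listed apoptosis regulators 4 were higher than in C0 (5.14% of all genes) and none lower (0.609%), and of 17 against C1, 3 were higher (8.17%) and 3 lower (5.30%), with a median of -0.23. Their summed level was 5608 CPM in pooled C8, against 5362 CPM in cluster 12, and was 7509 and 7761 CPM in the sub-cluster of 172 cells and at most 6312 CPM in the other sub-clusters. None of 16 MHC class II presentation genes was called against C0, where few genes were called in all (5.14% higher and 0.609% lower). *H2-Aa*, a chain of MHC class II, was at 8926 and 9194 CPM against 8333 and 8098 CPM.

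Few genes were lower in C8 than in C0. *Hspa1a*, an inducible HSP70 chaperone, was at 471 CPM (451 to 493) and 681 CPM (657 to 707), the lowest of the 15 clusters, against 1853 and 1830 CPM in C0 and 2097 and 2280 CPM in C1. *Hspa1b* was at 192 and 247 CPM, against 692 to 881 CPM. The transcripts of this gene pair are nearly identical, so the split of UMIs between them is uncertain. None of the other 11 heat shock genes was called against C0, a count that says little where 0.609% of all genes were called lower. *Hspa8*, the constitutive chaperone, was at 2203 and 2559 CPM against 1570 and 1776 CPM in C0. *Txnip*, an inhibitor of thioredoxin that also limits glucose uptake, was at 75.5 and 87.6 CPM against 320 and 299 CPM in C0, and near C1 (110 and 91.3).

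The share of each cell's UMIs on the immediate early list was examined cell by cell. Its median was 3.20% in WT C8 and 2.78% in *Batf3*-/- C8, 0.848% and 0.773% in C0, and 1.12% and 1.14% in C1. The lowest C8 cells stood at 0.609% and 0.776%, and the WT one was below the WT medians of C0 and C1, so the distributions overlapped. The 5th percentile of C8 over both libraries was reached by 585 of 3176 (18.4%) and 385 of 2961 C0 cells and by 253 of 721 (35.1%) and 671 of 1845 (36.4%) C1 cells. Of C0 cells, 4 of 3176 (0.126%) and 3 of 2961 (0.101%) reached the C8 median. For the maturation and migration list the C8 medians were 0.596% and 0.617%, above C0 (0.315% and 0.261%) and far below C1 (2.22% and 2.203%). Its upper tail was long, with 95th percentiles of 3.11% and 4.34% in C8, so that some C8 cells had as much as a typical C1 cell.

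**Figure D3:**
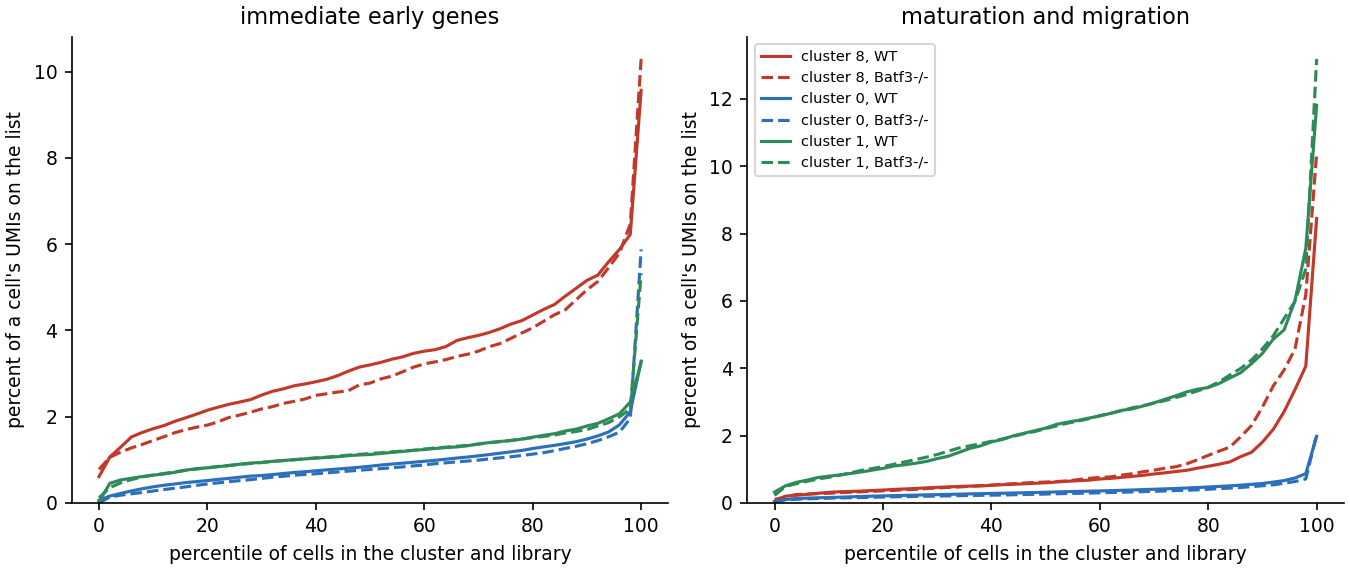
Percent of a cell's UMIs on the immediate early list (left) and on the maturation and migration list (right) by percentile of cells, for C8 (red), C0 (blue) and C1 (green), solid for WT and dashed for *Batf3*-/-. C8 lies above the others along the whole left panel, and in the right panel it stays below C1 and nearer to C0 for most cells and then rises towards C1.

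Clustering the C8 cells again, with highly variable genes of C8 alone, gave 4 sub-clusters, numbered 0 to 3, and both libraries contributed to each. They held 428, 187, 213 and 172 cells. The libraries were split unequally among them: sub-cluster 0 held 51.2% of WT and 33.3% of *Batf3*-/- C8 cells and sub-cluster 3 held 13.2% and 21.7%. The part of this split in the differences between libraries was not tested, and differences were also seen within sub-clusters, with *Fabp5* at 1160 CPM in WT and 2005 CPM in *Batf3*-/- in sub-cluster 3. *Ccr7* lay mostly in sub-cluster 3, which had 5870 of the 7654 *Ccr7* UMIs of C8 (76.7%) but 16.0% of all its UMIs. There it was at 4239 CPM in WT and 4431 CPM in *Batf3*-/-, above the 831 and 930 CPM of C1. C1 was not split in the same way, so a *Ccr7*-rich part of C8 is set here against a whole cluster. In sub-cluster 0, the one with most cells, *Ccr7* was at 78.8 and 159 CPM. *Fscn1* was at 554 and 719 CPM in sub-cluster 3 and between 6.93 and 44.7 CPM elsewhere. *Il12b*, the interleukin 12 subunit that steers T cells to a Th1 response, was at 375 and 247 CPM there and at 1.05 CPM or below in the rest.

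The immediate early genes were spread over all 4 sub-clusters. Their summed level was 33021 and 28508 CPM in sub-cluster 0, 20165 and 18228 CPM in 1, 37353 and 31533 CPM in 2 and 30222 and 30082 CPM in 3, all above the 8923 and 8042 CPM of C0. *Cd83* was lowest in sub-cluster 1 (926 and 833 CPM) and highest in 3 (1987 and 2226 CPM). *Irf4* did not track *Ccr7*, at 171 and 146 CPM in sub-cluster 0 and 108 and 88.2 CPM in sub-cluster 3.

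Without sub-cluster 3, 6 of 18 maturation and migration genes were higher than in C0 (*Ccr7*, *Cd83*, *Cd80*, *Cd86*, *Marcksl1* and *Samsn1*), and the median was 0.57, with 230 higher and 27 lower of all 5206 genes compared. The immediate early list kept 22 of 29, with a median of 2.65. *Ccr7* in the remaining C8 cells was at 184 and 325 CPM, still above C0 but below C1. Leaving these cells out was decided after the data were seen.

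Sub-cluster 1 had fewest immediate early transcripts and most monocyte-linked ones. *Lyz2*, the lysozyme of myeloid cells, was at 578 and 862 CPM there, and between 12.8 and 135 CPM in the other 3. The summed cDC2b and monocyte-linked list was at 4472 and 4521 CPM there, against 2355 and 2604 CPM in C0. *Ccr2*, a receptor of monocytes and some cDC2b cells, was at 74.5 and 46.6 CPM, against at most 17.3 CPM. In that sub-cluster 9.63% of cells were called as doublets and 29.4% were outside G1, against 3.27% and 12.4% in sub-cluster 0, and 7.56% of sub-cluster 3 were called as doublets. In a finer split of C8 into 7 sub-clusters, *Lyz2* was at 1645 CPM in a sub-cluster of 82 cells, 90.2% of them in G1, and at 23.9 CPM in one of 165 cells with 66.1% in G1 and 13.9% called as doublets. Cell cycle genes were higher in the latter than in the rest of C8, *Pclaf* at 71.6 against 3.18 CPM, *Mcm5* at 71.1 against 15.6 CPM and *Top2a* at 51.1 against 12.0 CPM. The part of doublets in these levels was not tested. Sub-cluster 0 had most *Isg15*, an interferon-induced gene (391 and 294 CPM), and sub-cluster 2 most *Bmp2*, a growth factor gene (116 and 170 CPM).

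**Figure D4:**
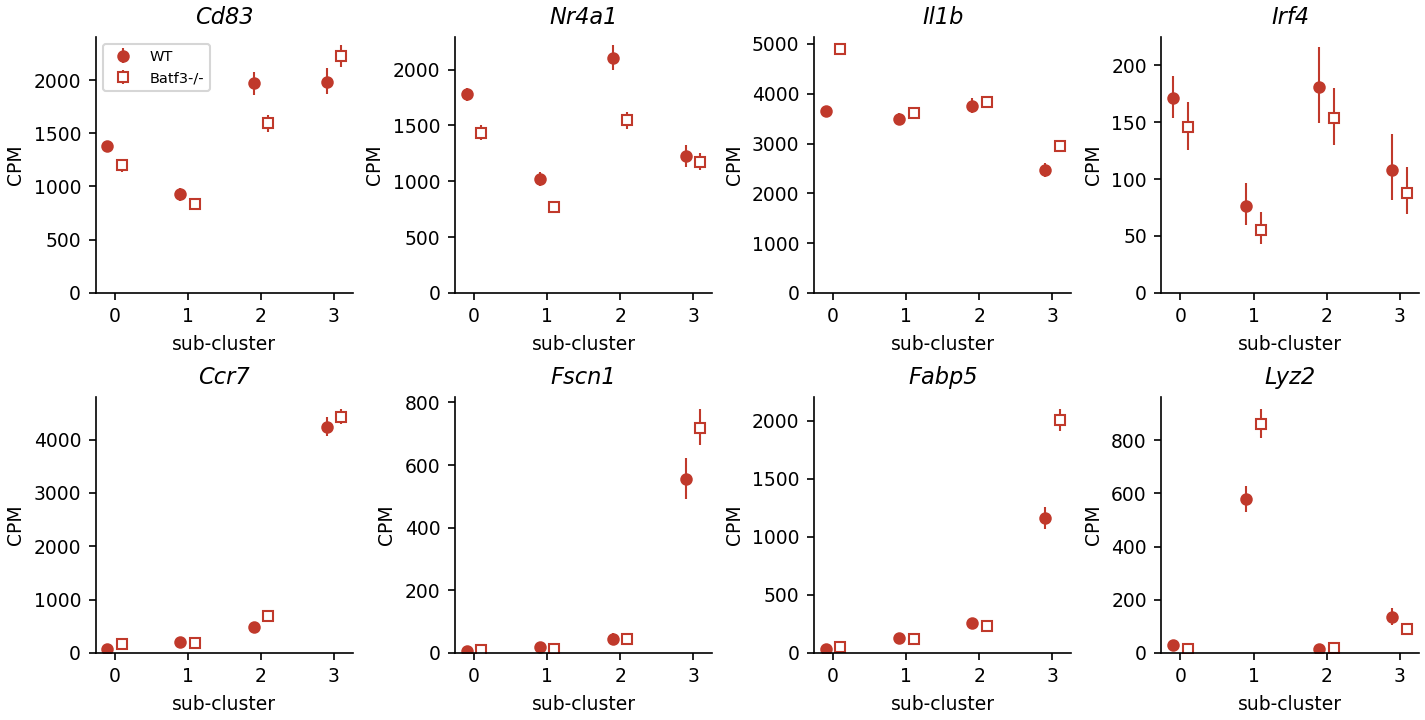
CPM of 8 genes in the 4 sub-clusters of C8, filled circles for WT and open squares for *Batf3*-/-, with 95% counting intervals. *Ccr7*, *Fscn1* and *Fabp5* are concentrated in sub-cluster 3 and *Lyz2* in sub-cluster 1, whereas *Cd83*, *Nr4a1*, *Il1b* and *Irf4* are present in all 4.

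C8 made up 4.34% (3.99 to 4.72) of WT cells and 3.87% (3.53 to 4.23) of *Batf3*-/- cells. WT spleens hold cDC1 cells that *Batf3*-/- spleens largely lack, and with the cDC1 clusters left out of the total the shares were 6.13% (5.63 to 6.65) and 4.14% (3.78 to 4.52). Of the cells of clusters 0, 1 and 8 it was 12.0% and 8.89%. Cells called in S or G2M phase were 17.7% (14.5 to 21.2) of WT and 13.2% (10.3 to 16.6) of *Batf3*-/- C8 cells, above the 9.35% and 7.70% of C0 and near the 14.01% and 12.6% of C1.

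Within C8 the libraries differed at few genes by a 2-fold rule. The paper's own test between genotypes gave only *Batf3* outside a few cDC1 clusters, and C8 was not among these exceptions. The rule used here is a different measure and no test. Of 5165 genes, 16 were at least 2-fold higher in *Batf3*-/- (0.310%) and 13 lower (0.252%), and the median log2 ratio was -0.02. Between 2 single libraries such differences include those between the mice and the preparations, which cannot be told apart from genotype. The WT mice and the *Batf3*-/- line came from different suppliers. Other inherited differences, near *Batf3* or elsewhere, therefore cannot be told apart from the loss of *Batf3*. *Batf3* was lowest, with 14 UMIs in *Batf3*-/- against 642 in WT (log2 ratio -5.56, -6.44 to -4.80). *Hic1*, a transcriptional repressor, was at 70.7 CPM in WT and 19.95 CPM in *Batf3*-/- C8, and was lower in *Batf3*-/- in C0 and C1 too, with log2 ratios of -1.83, -1.47 and -2.24 in C8, C0 and C1.

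Among the genes named by rank at a mean of at least 50 CPM, *Eprs* was lower and *Itpkb* higher in *Batf3*-/- C8, and neither moved that way in C0 or C1. *Eprs*, which charges tRNAs with glutamate and proline, was at 277 CPM in WT and 125 CPM in *Batf3*-/- C8 (log2 ratio -1.15, -1.30 to -0.997). In C0 it was at 77.6 and 77.8 CPM and in C1 at 51.5 and 53.0 CPM. *Itpkb*, an inositol trisphosphate kinase, was at 40.8 CPM in WT and 94.1 CPM in *Batf3*-/- C8 (log2 ratio 1.21, 0.94 to 1.47), with log2 ratios of -0.20 in C0 and -0.67 in C1. The difference of these ratios between clusters was not tested. Both differences had the same direction in each of the 4 sub-clusters, *Eprs* at 183 to 408 CPM in WT and 76.1 to 156 CPM in *Batf3*-/-. *Itpkb* was at 18.4 to 57.7 CPM in WT and 83.3 to 111 CPM in *Batf3*-/-. The sub-clusters come from the same 2 libraries and are not replicates.

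Most of the other genes higher in *Batf3*-/- were not called without sub-cluster 3. With it left out 7 genes were higher, 5 of the 16 (*Anxa3*, *Cxcl10*, *Gsr*, *Itpkb* and *Pxdc1*) among them, while *Fabp5*, *Cd200* and *Socs3* were among the 11 others. In the remaining cells *Fabp5* was at 97.9 CPM in WT and 123 CPM in *Batf3*-/-. *Cd200* was at 4.14 and 5.53 CPM there, below the minimum of 20 CPM, and so could not be called at any ratio. Of the 13 lower genes 8 were kept. *Cxcl10*, an interferon-induced chemokine, was at 39.1 CPM in WT and 89.0 CPM in *Batf3*-/- C8, while *Ifit3*, an antiviral gene also induced by interferon, was at 38.6 and 13.1 CPM. The interferon list as a whole had a median log2 ratio of -0.62 in C8, with 16 of 17 genes below 0. Of the 17, 2 were called lower (0.252% of all genes) and 1 higher (0.310%). In the finer split into 7, one sub-cluster with *Ifit3* at 95.5 CPM, against 10.2 CPM in the rest of C8, held 25.4% of WT and 12.4% of *Batf3*-/- C8 cells, and the part of this unequal split in the interferon differences was not tested. In C0 the list median was -0.23 with 16 of 18 below 0, and in C1 -0.04 with 8 of 13. The immediate early list had a median of -0.18 in C8, with 23 of 29 below 0 and no gene called, -0.25 in C0, with 21 of 23 below 0 and no gene called, and -0.02 in C1, with 13 of 24 below 0 and 1 gene called higher. Of all genes compared, 2794 of 5165 were below 0 in C8, 2387 of 5227 in C0 and 2578 of 4967 in C1. Those called higher and lower were 16 and 13 in C8, 4 and 9 in C0 and 10 and 6 in C1.

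**Figure D5:**
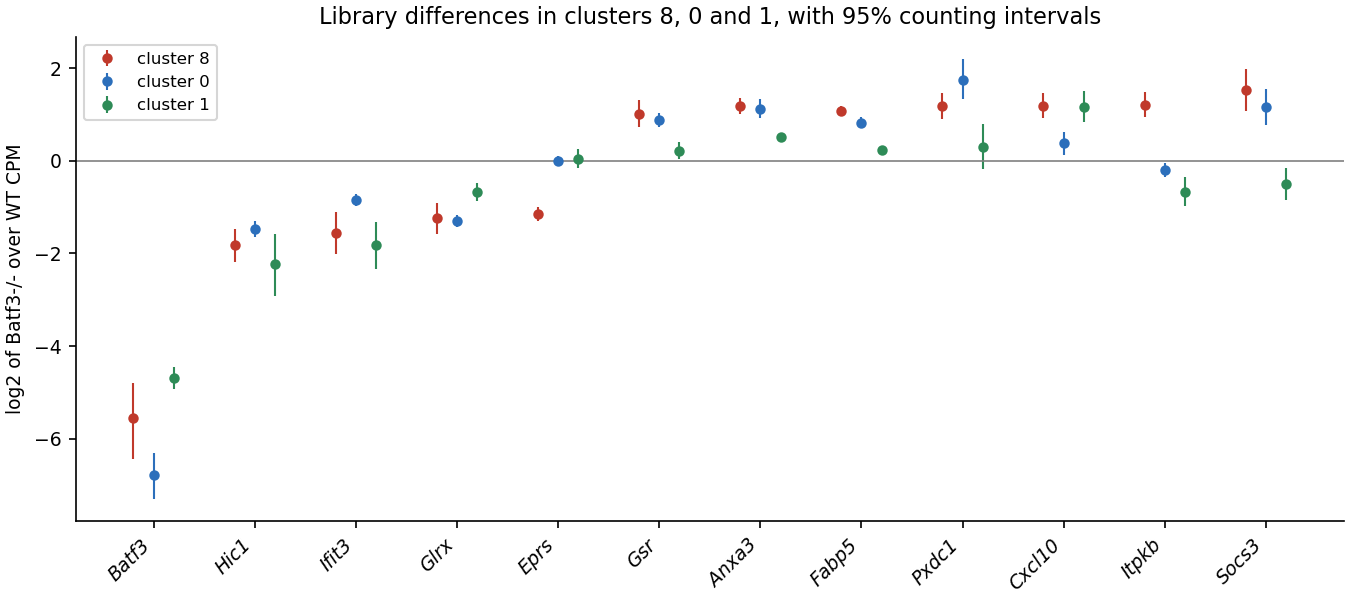
Log2 ratio of *Batf3*-/- over WT CPM for 12 genes in C8 (red), C0 (blue) and C1 (green), with 95% counting intervals. *Batf3* is low in all 3 clusters, whereas *Eprs* is below 0 in C8 alone and *Itpkb* above 0 in C8 alone.

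The medians of the antibody-derived tags hardly separated C8 from its neighbours. The paper reports a substantial background count for each antibody and applied a threshold per antibody, whereas no threshold was applied here. Medians near background can be alike whatever the surface level, so they do not show that surface proteins were alike. Of 11 deposited tag rows, 9 carry no antibody name and 2 could be tied to *Cd4* and *Cd8a* by their correlation with those transcripts over all cells. The authors' centered log ratios, a natural-log scale, had medians in C8 that differed from C0 by -0.078 to 0.017 in WT and by -0.052 to 0.023 in *Batf3*-/- over the 11 rows. Against C1 the differences were -0.031 to 0.030 and -0.023 to 0.045. The CD4 tag median was 0.695 in WT and 0.700 in *Batf3*-/- C8, against 0.753 and 0.727 in C0 and 1.20 and 1.02 in plasmacytoid DCs. The CD8a tag median was 0.536 and 0.670 in C8, against 0.547 and 0.647 in C0 and 1.15 and 1.21 in the cDC1 cells of cluster 4.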

How the data were processed

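The 2 libraries of sorted splenic cells, 1 per genotype, were read from the deposited tables. The raw UMI counts per gene and cell were deposited by the authors, who demultiplexed with bcl2fastq 2.2.0, counted with Cell Ranger on GRCm38, evened the depth of the libraries and filtered cells in Seurat 3.0.5. The deposited mitochondrial and ribosomal fraction per cell, cell cycle score and phase, reference label and cluster number were used as given, and each library's tag values are natural log centered ratios made by the authors. Deposited log-normalized expression was not used, since it follows from the counts.

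UMIs were summed per cluster and library in Python 3.11.15 with numpy 2.4.6, pandas 2.3.3 and scipy 1.17.1, and given as CPM. Log2 ratios between sums carry exact binomial-split intervals of 95%, which cover counting error only. A call between clusters needed 2-fold in the same direction in both libraries and a mean of at least 20 CPM, and one between genotypes 2-fold. The groups of 1 library allow no test, and none was run. Genes were ranked over the 15 of 20 clusters with at least 200 cells. Doublets were called on each library by simulated doublets (scanpy 1.11.5), and kept except in an alternative. Sub-clusters came from the Leiden method of igraph 0.11.9, run through scanpy, at resolution 0.3. Fold calling was tested on simulated data: genes changed 3-, 6- and 12-fold were called (100%) in each comparison, and none changed 1.5-fold. The simulated counts held counting error only, with no variation between mice, preparations or cells, so the result does not cover these.

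The members and gene lists were chosen with earlier results of these data known. Named genes were *Cd83*, *Ccr7*, *Irf4* and *Batf3*, those ranked highest and lowest in each comparison at a mean of at least 50 CPM, those ranked first among clusters, and list members called or most abundant. Alternatives were other minimum levels, per-cell CPM, no mitochondrial or ribosomal protein genes, no doublets, G1 cells only, thinning to 2000 UMIs and another sub-cluster resolution. Gene positions are from GENCODE M21.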

Additional observations from a re-analysis of the deposited data

Results flagged for a closer look

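*Itpkb* was higher in *Batf3*-/- than in WT in C8, with a log2 ratio of 1.21, whereas the same ratio was -0.20 in C0 and -0.67 in C1. *Socs3*, an inhibitor of cytokine signalling, had a log2 ratio of 1.52 in C8 and 1.15 in C0, but -0.51 in C1. These were singled out because the direction in C8 was opposite to that in another cluster. Each value rests on 1 library per genotype, and the difference between the clusters was not tested.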

How the results depend on the processing

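Among the 53 single-gene ratios that were recomputed, none that was called changed direction, and 705 of 804 recomputed values stayed within their limits. A change of the minimum mean cannot alter a single gene's ratio. Those recomputed values were therefore the same by construction and are part of the 705. *Ccr7* against C1, which was not called (mean log2 ratio 0.0045), was -0.016 without doublets and -1.84 without the sub-cluster with most *Ccr7*. A minimum mean of 5 CPM gave 415 genes higher and 118 lower than C0, 519 lower than C1, and 85 higher and 51 lower in *Batf3*-/-. A minimum of 50 CPM gave 165 and 13 against C0, 232 and 154 against C1, and 7 and 2 between genotypes. Genes lower than C0 were 56 without mitochondrial and ribosomal protein genes and 51 with cells thinned to 2000 UMIs, where 38 and 43 genes were higher and lower in *Batf3*-/-. Maturation and migration genes higher than C1 were 4 with per-cell CPM. Without the sub-cluster with most *Ccr7*, chosen after seeing the data, 6 of these genes were higher than C0 and 7 genes higher in *Batf3*-/-. The C8 share was 6.13% of WT cells with cDC1 clusters left out, and 12.0% and 8.89% of clusters 0, 1 and 8. *Ccr7* was seen in 30.4% of WT and 42.8% of *Batf3*-/- C8 cells at 2000 UMIs and in 41.4% and 62.3% unthinned. Resolution 0.6 gave 7 sub-clusters, and the one with most *Ccr7* had 187 cells, 170 of them shared (98.8% and 90.9% of each). The causes of these changes were not tested. No paired analysis was possible because each genotype is 1 library. Counting intervals do not cover differences between mice.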
